A study of Mus musculus with 6 samples.

Results

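The genes examined were 9 genes of the transforming growth factor beta (TGF-beta) superfamily, chosen by name: the ligand genes Tgfb1, Tgfb2, Tgfb3, Inhba and Bmp4, the receptor genes Tgfbr1 and Tgfbr2, the inhibitory Smad gene Smad7, and the target gene Ctgf, whose present symbol is Ccn2. All 9 were among the 27179 genes counted and among the 14069 genes abundant enough to be tested. Their mRNA was compared by mRNA-seq in 3 mouse embryonic fibroblast lines with 2 libraries each. The CPN-/- line is labelled Cry1-/-, Cry2-/-, Per1-/-, Per2-/-, Nr1d1-/- and Nr1d2-/-, knockouts of the cryptochrome, period and NR1D repressors of the circadian clock. The CPN-/- CRY1 and CPN-/- CRY2 lines carry the same 6 knockouts and express exogenous CRY1 or CRY2 from a viral promoter, each line being a single colony picked after retroviral infection and blasticidin selection. No line was treated. Each line's 2 libraries were made from separate RNA preparations, so the tests measure the spread between preparations of a clone. CPN-/- is the parental line, and no line with an empty vector is among the samples. The exogenous CRY protein, the infection and selection, and the choice of colony therefore cannot be told apart.

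TGF-beta ligands are secreted dimers held latent in the matrix by binding proteins. After activation they join a type II receptor, TGFBR2, to a type I receptor such as TGFBR1, which phosphorylates Smad proteins that enter the nucleus and regulate target genes. Activins, among them the homodimer of the Inhba product, use related receptors and the same Smad proteins, whereas BMP4 signals through another branch of Smads. SMAD7 is induced by the pathway and blocks the type I receptors, which makes it a feedback gene. CTGF is a secreted matrix protein and a classical TGF-beta target in fibroblasts, and it is also a target of YAP and TEAD. CRY proteins repress CLOCK-BMAL1, which binds E-box elements in DNA.

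Libraries held between 25957409 and 36106949 counts. Levels are given as CPM, counts relative to the library size after TMM scaling, with factors between 0.991 and 1.01. Cry1 was highest in CPN-/- CRY1, at 165 and 189.6 CPM, and Cry2 was highest in CPN-/- CRY2, at 349 and 351 CPM. Both were also counted in CPN-/-, Cry1 at 125 and 115 CPM and Cry2 at 136 and 129 CPM, and the counts do not separate endogenous from exogenous transcripts. Reads were also counted in CPN-/- for Per1 (mean 64.2 CPM), Per2 (84.9 CPM), Nr1d1 (108 CPM) and Nr1d2 (111 CPM). Counts per gene do not show which part of a gene the reads come from, so they do not check the knockouts. Of 8 fibroblast markers, Thy1 had between 1 and 7 counts in a library and Col3a1 between 258 and 381. The other fibroblast markers were abundant, for example Col1a1 with between 56781 and 107128 counts. Of 16 markers of other cell types, 4 each, Cd68 of blood cells had between 44 and 65 counts in a library, Vwf and Pecam1 of endothelial cells between 12 and 62 and between 8 and 18, and Des of skeletal muscle between 26 and 52. The epithelial markers Krt14 and Krt5 reached 22 and 13 counts, both in replicate 2 of CPN-/- CRY2. The other markers (Cdh1, Cdh5, Tek, Ptprc, Adgre1, Csf1r, Myod1, Myog and Myh3) had at most 10 counts, and Epcam had 0 in every library. Their part in the results was not tested.

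Genes were called higher or lower where the quasi-likelihood test of edgeR, adjusted over all 14069 genes by the Benjamini-Hochberg method, gave an adjusted p under 0.05. Changes are given as the log2 fold change (log2FC) with its standard error (SE). In CPN-/- CRY1 compared with CPN-/-, 3 of the 9 genes were called higher (Inhba, Smad7 and Ctgf) and 0 lower, while 24.3% of all tested genes were called, 11.2% higher and 13.1% lower. In CPN-/- CRY2 compared with CPN-/-, Ctgf was called higher and Tgfb1 lower, while 6.66% of all tested genes were called, 2.58% higher and 4.08% lower. Between the CRY-expressing lines, Tgfb1 and Smad7 were higher and Bmp4 and Tgfbr2 lower in CPN-/- CRY1, while 16.3% of all tested genes were called, 7.72% higher and 8.57% lower. The 9 genes had a median log2FC of 0.64 against CPN-/- for CPN-/- CRY1 and of 0.27 for CPN-/- CRY2, beside medians over all tested genes of -0.0073 and -0.0076. Both comparisons with CPN-/- use the same CPN-/- libraries.

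**Figure D1:**
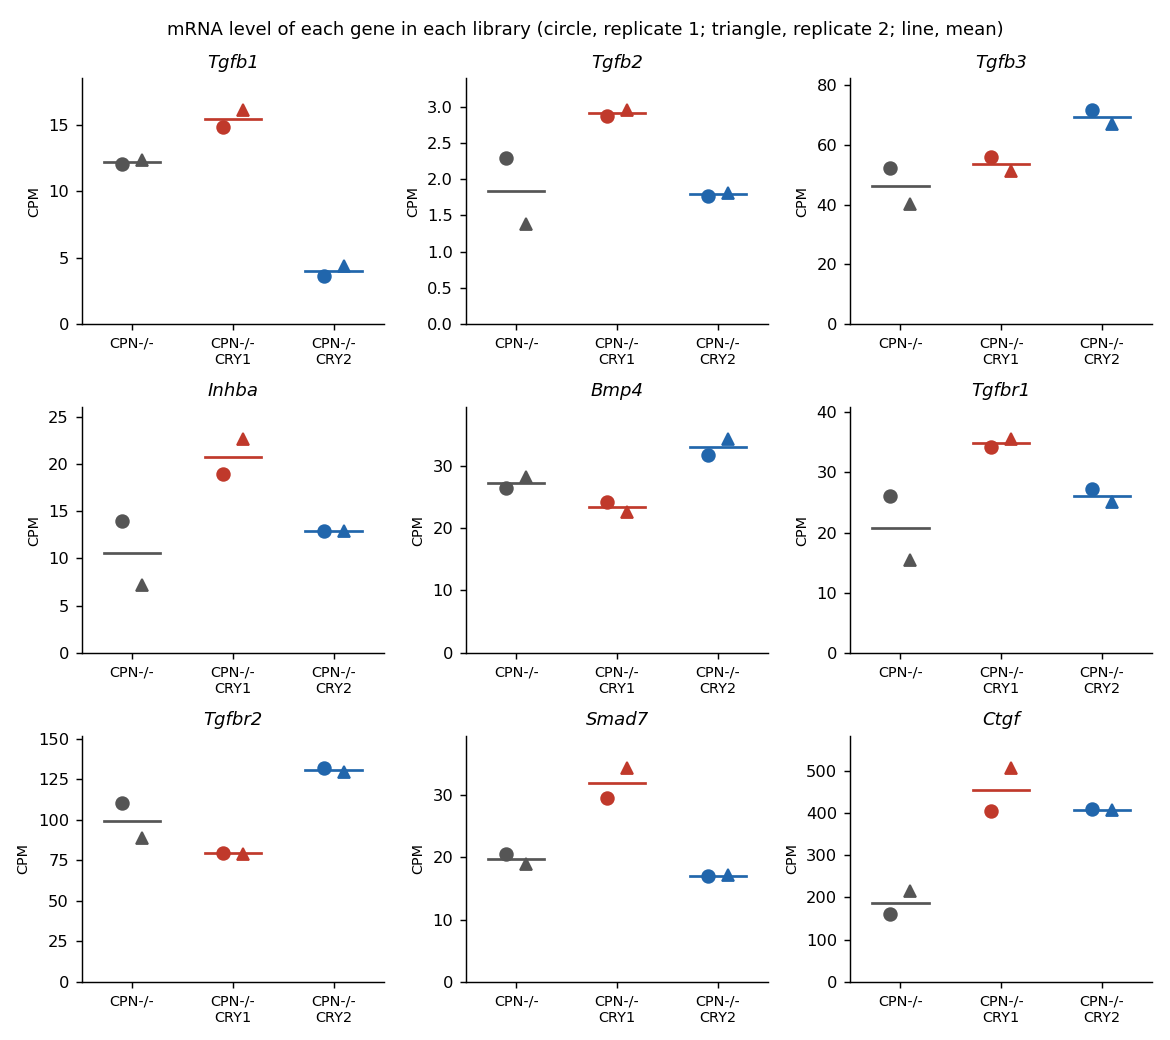
Level of each gene in CPM (vertical axis, from 0) in the 2 libraries of CPN-/-, CPN-/- CRY1 and CPN-/- CRY2, with circles for replicate 1, triangles for replicate 2 and lines for the mean. Tgfb1 lies between 3.64 and 4.37 CPM in CPN-/- CRY2 and at 12.04 CPM or more in the other lines, and Ctgf lies at 404 CPM or more in both CRY-expressing lines and at 216 CPM or less in CPN-/-.

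Among the ligands, Tgfb1 differed most between the lines. Tgfb1 (chr7:25687002-25705077, plus strand, mm10) encodes TGF-beta 1, the most widely expressed of the TGF-beta ligands. It was at 12.04 and 12.4 CPM in CPN-/-, 14.8 and 16.1 CPM in CPN-/- CRY1, and 3.64 and 4.37 CPM in CPN-/- CRY2. Both CPN-/- CRY2 libraries were thus far below the other 4, and the libraries of the other lines did not overlap either. Against CPN-/-, Tgfb1 was 3.04-fold lower in CPN-/- CRY2, with a log2FC of -1.61 (SE 0.14, adjusted p = 0.0014). In CPN-/- CRY1 the log2FC was 0.34 (SE 0.13, adjusted p = 0.092), which did not pass the test. The CRY-expressing lines differed directly, with Tgfb1 3.86-fold higher in CPN-/- CRY1 (log2FC 1.95, SE 0.14, adjusted p = 0.00043). The Tgfb1 calls in CPN-/- CRY2 and between the CRY-expressing lines were kept under every alternative setting and with each of the 6 libraries left out. A left-out library leaves its line with 1 library, which is assumed to vary like those of the other lines. The difference of 0.34 came under the threshold without replicate 1 (0.32, adjusted p = 0.025) or replicate 2 (0.37, adjusted p = 0.013) of CPN-/-, where 63% and 44.1% of all tested genes were called in CPN-/- CRY1. The other genes of chromosome 7 had median log2FC values between -0.03 and 0.04 in the 3 comparisons. The libraries are of bulk RNA, in which fewer cells of a type and less RNA per cell cannot be told apart.

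Tgfb2 and Tgfb3 encode the other two TGF-beta isoforms and passed the test in 0 of the 3 comparisons. Tgfb2 (chr1:186622787-186709697, minus strand) was the scarcest of the 9 genes, with between 36 and 104 counts in a library. It was at 2.29 and 1.38 CPM in CPN-/-, 2.88 and 2.95 CPM in CPN-/- CRY1, and 1.76 and 1.82 CPM in CPN-/- CRY2, so CPN-/- CRY1 lay above the other lines and the CPN-/- libraries spanned those of CPN-/- CRY2. The log2FC in CPN-/- CRY1 was 0.64 (SE 0.24, adjusted p = 0.096). It was 1.07 without replicate 1 of CPN-/- and 0.35 without replicate 2. Tgfb3 (chr12:86056743-86079041, minus strand) was at 52.2 and 40.2 CPM in CPN-/-, 55.9 and 51.3 CPM in CPN-/- CRY1, and 71.5 and 66.9 CPM in CPN-/- CRY2. Its CPN-/- CRY2 libraries were the highest, opposite to Tgfb1, and its CPN-/- and CPN-/- CRY1 libraries overlapped. The log2FC of Tgfb3 in CPN-/- CRY2 was 0.58 (SE 0.14, adjusted p = 0.062). It came under the threshold without a filter on low counts (adjusted p = 0.021), with DESeq2's Wald test (adjusted p = 0.0093) and without replicate 1 (log2FC 0.78) or replicate 2 (log2FC 0.42) of CPN-/-, where 56.4% and 22.1% of all tested genes were called in CPN-/- CRY2.

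The 3 TGF-beta isoforms are compared with each other per kilobase of transcript. In CPN-/-, Tgfb3 had the highest level, 13.7 ± 2.501 CPM per kb (SD, n = 2), followed by Tgfb1 with 5.61 ± 0.103 and Tgfb2 with 0.359 ± 0.126. In CPN-/- CRY1 the order was the same, with 15.8 ± 0.976 CPM per kb for Tgfb3 and 7.11 ± 0.409 for Tgfb1. In CPN-/- CRY2, Tgfb3 was at 20.5 ± 0.955 CPM per kb and Tgfb1 at 1.84 ± 0.239. Tgfb3 was therefore the leading isoform by level in each line, and the gap to Tgfb1 was widest in CPN-/- CRY2.

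Inhba (chr13:16004256-16031609, plus strand) encodes the beta A subunit of activin A. Its level was 13.99 and 7.22 CPM in CPN-/-, 18.9 and 22.6 CPM in CPN-/- CRY1, and 12.9 CPM in both CPN-/- CRY2 libraries. The CPN-/- CRY1 libraries were the highest, and the CPN-/- libraries, which lay on both sides of CPN-/- CRY2, differed from each other by a factor of 1.94. The log2FC in CPN-/- CRY1 was 0.96 (SE 0.28, adjusted p = 0.046), a rise of 1.94-fold. This call was lost when either library of CPN-/- CRY1 or CPN-/- CRY2 was left out, with adjusted p between 0.09 and 0.24, and in a fit of the 4 libraries of the comparison alone (adjusted p = 0.095). Without replicate 1 of CPN-/- the log2FC was 1.52, and without replicate 2 it was 0.57. In CPN-/- CRY2 the log2FC was 0.27 (SE 0.28, adjusted p = 0.56). It was 0.84 without replicate 1 of CPN-/- and -0.11 without replicate 2.

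Bmp4 (chr14:46383525-46390669, minus strand) encodes a ligand of the BMP branch. It was at 26.4 and 28.2 CPM in CPN-/-, 24.2 and 22.5 CPM in CPN-/- CRY1, and 31.8 and 34.2 CPM in CPN-/- CRY2. No lines overlapped, and CPN-/- lay between the CRY-expressing lines. Neither difference from CPN-/- passed the test, with a log2FC of -0.23 in CPN-/- CRY1 (SE 0.10, adjusted p = 0.15) and of 0.27 in CPN-/- CRY2 (SE 0.10, adjusted p = 0.17). Without replicate 1 of CPN-/- these were -0.27 and 0.23, and without replicate 2 they were -0.17 and 0.33. The CRY-expressing lines differed by 1.41-fold, lower in CPN-/- CRY1 (log2FC -0.50, SE 0.10, adjusted p = 0.021). That call was lost when any 1 of their 4 libraries was left out, with adjusted p between 0.13 and 0.21.

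Tgfbr1 and Tgfbr2 encode the receptor pair that binds the 3 TGF-beta isoforms, and their levels were ordered differently across the lines. Tgfbr1 (chr4:47353222-47414926, plus strand), the type I receptor kinase, was at 26.1 and 15.5 CPM in CPN-/-, 34.3 and 35.5 CPM in CPN-/- CRY1, and 27.2 and 25.1 CPM in CPN-/- CRY2. CPN-/- CRY1 was the highest, and CPN-/- overlapped CPN-/- CRY2. Its log2FC of 0.74 in CPN-/- CRY1 (SE 0.22, adjusted p = 0.052) did not pass the test. It did with DESeq2's Wald test (adjusted p = 0.0084) and without a filter on low counts (adjusted p = 0.034). With DESeq2's size factors it was just under the threshold (adjusted p = 0.05 after rounding). The log2FC was 1.17 without replicate 1 of CPN-/- and 0.43 without replicate 2. Tgfbr2 (chr9:116087695-116175363, minus strand), the ligand-binding type II receptor, was at 110.5 and 88.6 CPM in CPN-/-, 79.8 and 79.1 CPM in CPN-/- CRY1, and 132 and 129.6 CPM in CPN-/- CRY2. Here CPN-/- CRY1 was the lowest and CPN-/- CRY2 the highest, with no overlap between lines. Between the CRY-expressing lines Tgfbr2 differed 1.65-fold, with CPN-/- CRY1 the lower (log2FC -0.72, SE 0.12, adjusted p = 0.010). Leaving out any 1 of those 4 libraries gave log2FC values between -0.70 and -0.73 and adjusted p between 0.094 and 0.12. Against CPN-/- the log2FC of Tgfbr2 was -0.33 (SE 0.12, adjusted p = 0.093) in CPN-/- CRY1 and 0.39 (SE 0.12, adjusted p = 0.12) in CPN-/- CRY2. Without replicate 1 of CPN-/- these were -0.16 and 0.56, and without replicate 2 they were -0.47 and 0.25. Tgfbr2 transcripts share stretches of at least 150 bases at 95% identity or more with transcripts of 9 other genes, and how reads with several matches were counted is not given in the sources used here.

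Smad7 (chr18:75367365-75395935, plus strand), the inhibitory Smad, was higher in CPN-/- CRY1 than in either other line. It was at 20.5 and 19.0 CPM in CPN-/-, 29.6 and 34.3 CPM in CPN-/- CRY1, and 16.9 and 17.2 CPM in CPN-/- CRY2. The CPN-/- CRY1 libraries were the highest and the CPN-/- CRY2 libraries the lowest, and no lines overlapped. The increase over CPN-/- was 1.62-fold (log2FC 0.69, SE 0.12, adjusted p = 0.0078), and that over CPN-/- CRY2 was 1.87-fold (log2FC 0.91, SE 0.12, adjusted p = 0.0036). In CPN-/- CRY2 the log2FC against CPN-/- was -0.21 (SE 0.12, adjusted p = 0.30). Without replicate 2 of CPN-/- CRY1, the adjusted p was 0.096 against CPN-/- and 0.055 against CPN-/- CRY2. The call against CPN-/- CRY2 was also lost without replicate 1 (adjusted p = 0.06) or replicate 2 (adjusted p = 0.059) of that line.

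Ctgf (chr10:24595442-24598683, plus strand) had the highest level per kilobase of the 9 genes and was higher in both CRY-expressing lines. It was at 159 and 216 CPM in CPN-/-, 404 and 506 CPM in CPN-/- CRY1, and 409 and 406 CPM in CPN-/- CRY2. All 4 libraries of the CRY-expressing lines were above both CPN-/- libraries, and the CRY-expressing lines overlapped each other. Ctgf rose 2.42-fold in CPN-/- CRY1 (log2FC 1.28, SE 0.17, adjusted p = 0.0041) and 2.17-fold in CPN-/- CRY2 (log2FC 1.12, SE 0.17, adjusted p = 0.013). The log2 difference between the CRY-expressing lines was 0.16 (SE 0.17, adjusted p = 0.60). The CPN-/- CRY1 call was kept under every alternative setting and with each library left out, whereas that in CPN-/- CRY2 was lost without replicate 1 (adjusted p = 0.11) or replicate 2 (adjusted p = 0.10) of CPN-/- CRY2. Of the exon bases of Ctgf, 665 are overlapped by Gm15270 on the other strand, and since the strand setting of the counting is not given in the sources used here, reads from the 2 genes cannot be told apart. The same holds for 420 exon bases of Tgfb3, 124 of Tgfb2 and 89 of Bmp4, which other genes overlap on the opposite strand.

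**Figure D2:**
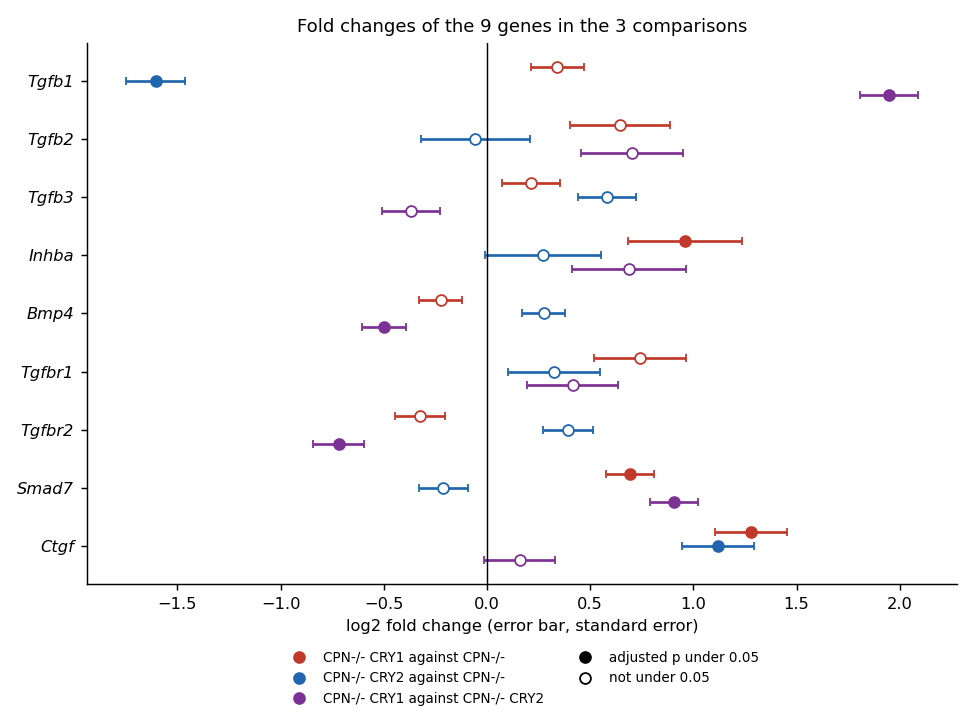
Log2 fold change (horizontal axis) of each gene in the 3 comparisons, with standard errors as bars and filled points for an adjusted p under 0.05. Ctgf is to the right of 0 in both comparisons with CPN-/-, and Tgfb1 has -1.61 in CPN-/- CRY2 and 1.95 between the CRY-expressing lines.

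For the genes called in at least 1 comparison, the closest pattern over the 6 libraries was sought among 10922 other genes, as the root mean square distance of centred log2 CPM. The closest gene was Btbd6 for Tgfb1 (distance 0.129), Ccdc186 for Inhba (0.0643), Mindy1 for Bmp4 (0.0303), Arsj for Tgfbr2 (0.0346), Foxl1 for Smad7 (0.0701) and Myl9 for Ctgf (0.144). Tgfb1 and Ctgf were thus the genes with the most distant nearest neighbours. The distance is not scaled to the size of a gene's changes. Btbd6 had a log2FC of -1.48 in CPN-/- CRY2 beside the -1.61 of Tgfb1. Myl9 had 1.39 in CPN-/- CRY1 and 1.03 in CPN-/- CRY2 beside 1.28 and 1.12 for Ctgf. Each closest gene was picked by its likeness over these same 6 libraries, so alike fold changes follow from the choice.

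RefSeq promoter windows (GRCm38.p6, 250 bases before to 50 after an annotated start) were at hand for 6 of the 9 genes, as 7 windows. None was at hand for Tgfb3, Smad7 and Ctgf, whose promoters were therefore not searched. They were searched on both strands for the E-box CACGTG, the Smad-binding element CAGAC, the TEAD site GGAATG and the AP-1 site TGANTCA. The E-box, which is the element of CLOCK-BMAL1, was found once in the Bmp4 window, at -188 from the start, and once in a Tgfb2 window, at -51. Among 32851 mouse promoter windows, 7.15% hold this E-box, 49.6% CAGAC, 14.7% GGAATG and 7.81% TGANTCA. The windows of Tgfb2, Tgfbr1 and Tgfbr2 hold CAGAC, and GGAATG and TGANTCA were in none of the 7. A match is a string of letters, not a bound site. The Tgfb1 window is shown because Tgfb1 differed most and none of the 4 motifs is in it, and those of Bmp4 and Tgfb2 because they hold the E-box, in capitals (5′ to 3′ on the gene's strand). They lie at chr7:25686752-25687051 (plus strand), chr14:46390620-46390919 (minus strand) and chr1:186705940-186706239 (minus strand), the last at a start site within the span of the gene.
Tgfb1: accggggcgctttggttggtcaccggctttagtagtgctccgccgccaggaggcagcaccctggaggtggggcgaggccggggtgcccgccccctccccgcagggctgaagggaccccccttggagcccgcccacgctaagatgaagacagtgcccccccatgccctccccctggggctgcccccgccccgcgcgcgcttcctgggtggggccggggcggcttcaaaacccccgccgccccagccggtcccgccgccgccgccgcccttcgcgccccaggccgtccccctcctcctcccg
Bmp4: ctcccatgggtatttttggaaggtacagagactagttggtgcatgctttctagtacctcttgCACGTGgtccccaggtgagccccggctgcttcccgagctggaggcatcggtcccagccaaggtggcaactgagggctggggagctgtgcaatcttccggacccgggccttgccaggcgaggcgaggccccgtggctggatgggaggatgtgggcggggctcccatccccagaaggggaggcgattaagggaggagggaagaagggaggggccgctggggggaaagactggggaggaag
Tgfb2: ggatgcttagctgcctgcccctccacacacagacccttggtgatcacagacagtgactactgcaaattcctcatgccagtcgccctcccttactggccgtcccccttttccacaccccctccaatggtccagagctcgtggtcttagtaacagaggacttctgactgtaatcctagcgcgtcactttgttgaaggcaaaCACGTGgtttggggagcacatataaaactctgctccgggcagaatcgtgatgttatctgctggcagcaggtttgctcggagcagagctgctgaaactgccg
Against CPN-/-, Bmp4 had log2FC values of -0.23 in CPN-/- CRY1 and 0.27 in CPN-/- CRY2, and Tgfb2 of 0.64 and -0.06. None of these passed the test. Bmp4 was called between the CRY-expressing lines (log2FC -0.50, adjusted p = 0.021). With the length trend removed it was also called in CPN-/- CRY2 (0.43, adjusted p = 0.006), beside 17.8% of all tested genes. In CPN-/- CRY1 its log2FC was then -0.06 (adjusted p = 0.55). A part of the E-box in these values was not tested.

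A further 99 genes of the pathway were listed by role, and 70 of them were abundant enough to be tested. In CPN-/- CRY1, 18 were called higher and 8 lower, which is 37.1% of those tested beside 24.3% of all genes. In CPN-/- CRY2, 6 were called higher and 4 lower, 14.3% beside 6.66% of all genes. Between the CRY-expressing lines, 16 were higher and 8 lower in CPN-/- CRY1, 34.3% beside 16.3% of all genes. The median log2FC over the 70 genes was 0.23 for CPN-/- CRY1 and 0.14 for CPN-/- CRY2. These shares were not tested against each other. The lists were chosen with earlier results of these data known. The part of that choice in the shares, here and by role below, was not tested.

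**Figure D3:**
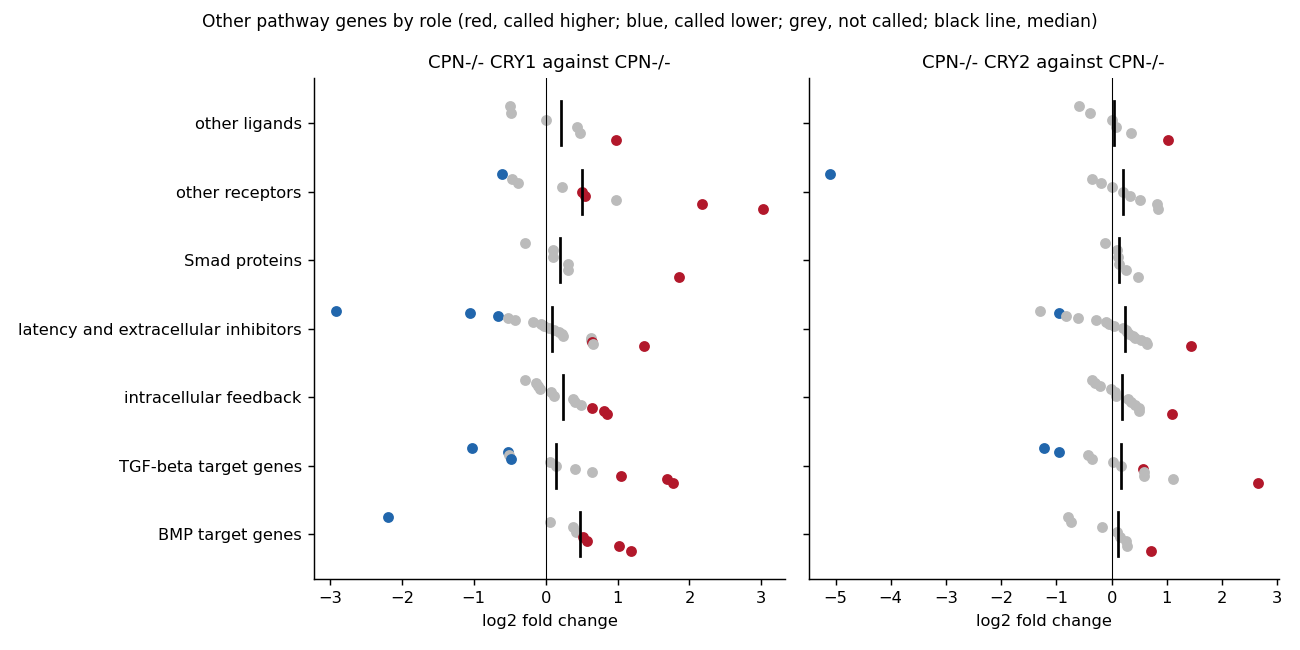
Log2 fold change against CPN-/- (horizontal axis) of the other tested pathway genes by role, in CPN-/- CRY1 (left) and CPN-/- CRY2 (right). Red points were called higher, blue points lower and grey points not called, and black lines are medians; the intracellular feedback genes include 3 called higher and 0 lower in CPN-/- CRY1, 25% of the 12 tested beside 24.3% of all tested genes.

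Beside Smad7, 12 other intracellular feedback genes were tested. In CPN-/- CRY1, 3 of the 12 were called higher and 0 lower, and in CPN-/- CRY2 1 was called higher and 0 lower. These are 25% and 8.33% of the 12, close to the 24.3% and 6.66% of all tested genes. Smad6, the other inhibitory Smad gene, was at 17.0 and 15.04 CPM in CPN-/-, 28.1 and 30.1 CPM in CPN-/- CRY1, and 19.95 and 19.3 CPM in CPN-/- CRY2. It rose in CPN-/- CRY1, with a log2FC of 0.86 (SE 0.11, adjusted p = 0.0033), and without replicate 2 of CPN-/- CRY1 the adjusted p was 0.051. Pmepa1, whose product sequesters receptor-activated Smads, was at 9.56 and 9.10 CPM in CPN-/-, 17.5 and 15.3 CPM in CPN-/- CRY1, and 7.31 and 7.23 CPM in CPN-/- CRY2. Its log2FC in CPN-/- CRY1 was 0.82 (SE 0.12, adjusted p = 0.0053), and without replicate 1 of CPN-/- CRY1 the adjusted p was 0.072. Like Smad7, Smad6 and Pmepa1 were higher in CPN-/- CRY1 than in CPN-/- CRY2. Ldlrad4, a relative of Pmepa1, had a log2FC of 0.65 in CPN-/- CRY1 (adjusted p = 0.019) and of 0.50 in CPN-/- CRY2 (adjusted p = 0.096). Its call was lost without any 1 of the 4 CRY1 and CRY2 libraries and in a fit of the comparison's own 4 libraries. Bambi, a decoy receptor without a kinase domain, went the other way between the lines, at 8.43 and 10.6 CPM in CPN-/-, 9.85 and 10.1 CPM in CPN-/- CRY1, and 20.2 and 20.3 CPM in CPN-/- CRY2. Its log2FC was 1.10 in CPN-/- CRY2 (SE 0.14, adjusted p = 0.0054) and 0.08 in CPN-/- CRY1 (adjusted p = 0.70). The call in CPN-/- CRY2 was lost without either library of that line, with an adjusted p of up to 0.066. Skil, a nuclear corepressor of Smads induced by TGF-beta, had log2FC values of -0.14 and -0.30, which did not pass the test.

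Of 14 listed TGF-beta target genes other than Ctgf, 11 were tested, and their calls went in both directions. In CPN-/- CRY1, 3 were called higher and 3 lower, and in CPN-/- CRY2 2 were called higher and 2 lower, or 54.5% and 36.4% of those tested beside 24.3% and 6.66% of all genes. Acta2, which encodes smooth muscle actin of contractile fibroblasts, was at 1157 and 1426 CPM in CPN-/-, 4230.2 and 4099 CPM in CPN-/- CRY1, and 1842 and 2055 CPM in CPN-/- CRY2. It rose 3.22-fold in CPN-/- CRY1 (log2FC 1.69, SE 0.14, adjusted p = 0.00062) and had a log2FC of 0.59 in CPN-/- CRY2 (adjusted p = 0.051). Tagln, the gene of the actin-binding protein transgelin, rose 3.42-fold in CPN-/- CRY1 (log2FC 1.77, SE 0.18, adjusted p = 0.0012), with 0.03 in CPN-/- CRY2. Postn, the gene of the matrix protein periostin, was higher in CPN-/- CRY2, at 525.7 and 437 CPM in CPN-/-, 584 and 478 CPM in CPN-/- CRY1, and 2807 and 3210.1 CPM in CPN-/- CRY2. It rose 6.25-fold there (log2FC 2.64, SE 0.16, adjusted p = 0.00047) and had a log2FC of 0.14 in CPN-/- CRY1 (adjusted p = 0.51). Cdkn1a, the gene of the cell cycle inhibitor p21, rose in CPN-/- CRY1 with a log2FC of 1.04 (adjusted p = 0.00068) and in CPN-/- CRY2 with 0.56 (adjusted p = 0.013), the latter call being lost without any 1 of the 4 libraries of the CRY-expressing lines or with the comparison's own 4 libraries. Junb, an AP-1 subunit gene, fell in CPN-/- CRY2 with a log2FC of -1.22 (adjusted p = 0.012), which was lost without replicate 2 of CPN-/- or either library of CPN-/- CRY2. Tgfbi had between 0 and 2 counts in a library and was not tested.

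Of 9 BMP target genes, 8 were tested, and in CPN-/- CRY1 4 were called higher and 1 lower, against 1 higher and 0 lower in CPN-/- CRY2. These are 62.5% and 12.5% of those tested, beside 24.3% and 6.66% of all genes. Between the CRY-expressing lines, 5 were higher and 1 lower in CPN-/- CRY1 (75% beside 16.3%), although Bmp4 itself was lower there than in CPN-/- CRY2. The Id genes encode inhibitors of basic helix-loop-helix factors and moved in different directions. Id2 was at 20.1 and 27.4 CPM in CPN-/-, 46.6 and 49.95 CPM in CPN-/- CRY1, and 40.0 and 37.3 CPM in CPN-/- CRY2, and rose in CPN-/- CRY1 (log2FC 1.03, adjusted p = 0.0056) and CPN-/- CRY2 (log2FC 0.71, adjusted p = 0.045). The first of these calls was lost without replicate 2 of CPN-/- CRY1, and the second without any 1 of the 4 libraries of the CRY-expressing lines or with the comparison's own 4. Id4 was at 8.27 and 11.6 CPM in CPN-/-, 2.05 and 2.27 CPM in CPN-/- CRY1, and 11.6 and 12.2 CPM in CPN-/- CRY2, and fell in CPN-/- CRY1 with a log2FC of -2.19 (SE 0.20, adjusted p = 0.00093). Id1 had log2FC values of 0.06 and -0.73 and Id3 of 0.42 and -0.17 in CPN-/- CRY1 and CPN-/- CRY2, and none of these passed the test. Atoh8, a transcription factor gene induced by BMP, rose in CPN-/- CRY1 with a log2FC of 1.18 (SE 0.15, adjusted p = 0.0028).

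Most other listed ligand genes were too scarce to be tested, since 6 of 27 passed the filter on low counts. Inhbb, which encodes the beta B subunit of activin, was the only one of the 6 called, which is 16.7% in either comparison with CPN-/-. It was at 58.2 and 50.9 CPM in CPN-/-, 107.7 and 106 CPM in CPN-/- CRY1, and 113 and 109 CPM in CPN-/- CRY2. Both lines were above CPN-/- without overlap, with log2FC values of 0.97 in CPN-/- CRY1 (SE 0.10, adjusted p = 0.0015) and 1.03 in CPN-/- CRY2 (SE 0.10, adjusted p = 0.0024). Both Inhbb calls were kept with each library left out. Of 12 other receptor genes, 9 were tested, and 4 were called higher and 1 lower in CPN-/- CRY1, against 0 higher and 1 lower in CPN-/- CRY2, or 55.6% and 11.1% beside 24.3% and 6.66% of all genes. The 1 lower in CPN-/- CRY2 was Bmpr1b, a BMP type I receptor gene, which has a mean under 100 counts and is named after its values were seen. Bmpr1b had 30 and 15 counts in CPN-/-, 212 and 210 in the CPN-/- CRY1 libraries, and 0 and 1 in those of CPN-/- CRY2. It was higher in CPN-/- CRY1 (log2FC 3.03, SE 0.27, adjusted p = 0.0008) and lower in CPN-/- CRY2 (adjusted p = 0.01), where no fold is given because its counts were under the floor of 3. The call in CPN-/- CRY2 was lost without either library of that line, with an adjusted p of up to 0.085. Acvr1, a type I receptor of activins and BMPs, had a log2FC of 0.55 in CPN-/- CRY1 (adjusted p = 0.01), lost without either library of that line. Acvr2a, an activin type II receptor, had log2FC values of 0.50 in CPN-/- CRY1 (adjusted p = 0.029) and 0.51 in CPN-/- CRY2 (adjusted p = 0.063). Tgfbr3, the co-receptor betaglycan, fell in CPN-/- CRY1 with a log2FC of -0.60 (SE 0.16, adjusted p = 0.039). The Acvr2a and Tgfbr3 calls were lost without any 1 of the 4 libraries of the CRY-expressing lines or with the comparison's own 4, and the log2FC of Tgfbr3 was -0.33 without replicate 1 of CPN-/-. Of the 6 Smad genes that transmit the signal, Smad9 of the BMP branch was the only one called, 3.62-fold higher in CPN-/- CRY1 (log2FC 1.86, SE 0.16, adjusted p = 0.00081), or 16.7% of the Smad genes beside 24.3% of all genes. It was at 17.0 and 12.2 CPM in CPN-/-, 51.5 and 54.3 CPM in CPN-/- CRY1, and 18.2 and 16.7 CPM in CPN-/- CRY2.

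Among 18 tested genes for latency proteins and extracellular inhibitors, 2 were called higher and 3 lower in CPN-/- CRY1, and 1 higher and 1 lower in CPN-/- CRY2, or 27.8% and 11.1% beside 24.3% and 6.66% of all genes. Ltbp1, which binds latent TGF-beta, was abundant, with between 8644 and 13925 counts, and had log2FC values of -0.06 and 0.27, which did not pass the test. Ltbp2, a matrix protein of the same family, fell in CPN-/- CRY1 with a log2FC of -1.05 (SE 0.21, adjusted p = 0.014), and had 0.65 in CPN-/- CRY2 (adjusted p = 0.12). Its call in CPN-/- CRY1 was lost without either library of that line, and its log2FC was -1.35 without replicate 2 of CPN-/- and -0.67 without replicate 1. Nbl1, a secreted BMP antagonist gene, rose in CPN-/- CRY1 with a log2FC of 1.36 (SE 0.14, adjusted p = 0.0015). Chrdl1, also a BMP antagonist gene, fell in CPN-/- CRY1 with a log2FC of -0.67 (adjusted p = 0.034). Leaving out any 1 library of the CRY-expressing lines, or fitting the comparison's own 4 libraries, ended the Chrdl1 call, and without replicate 1 of CPN-/- its log2FC was -0.36. Fst and Fstl3, which encode the activin-binding follistatins, had at most 16 and 49 counts in a library and did not pass the test in any comparison.

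The CPN-/- libraries differed from each other more than those of the other lines, and the difference went with transcript length, so it is given beside the lengths of the 9 genes. The SD over genes of the log2 difference between replicates 1 and 2 was 0.435 in CPN-/-, beside 0.232 between the CPN-/- CRY1 libraries and 0.245 between the CPN-/- CRY2 libraries. In CPN-/- it ran from a median of -0.49 among transcripts of about 781 bases to 0.67 among those of about 9886 bases. Inhba, with a transcript of 6390 bases, differed by 0.95 between the CPN-/- libraries, Tgfbr1 (5756 bases) by 0.75 and Tgfb2 (5116 bases) by 0.71. Tgfb1 (2175 bases) differed by -0.04 and Bmp4 (2064 bases) by -0.09, and Ctgf (2490 bases) by -0.44. Tgfb3 (3383 bases) differed by 0.38 and Smad7 (4278 bases) by 0.11. Tgfbr2, with 8092 bases the longest of the 9, differed by 0.32, less than the shorter Inhba, Tgfbr1 and Tgfb2. The part of the length trend in the results was not tested beyond its removal.

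**Figure D4:**
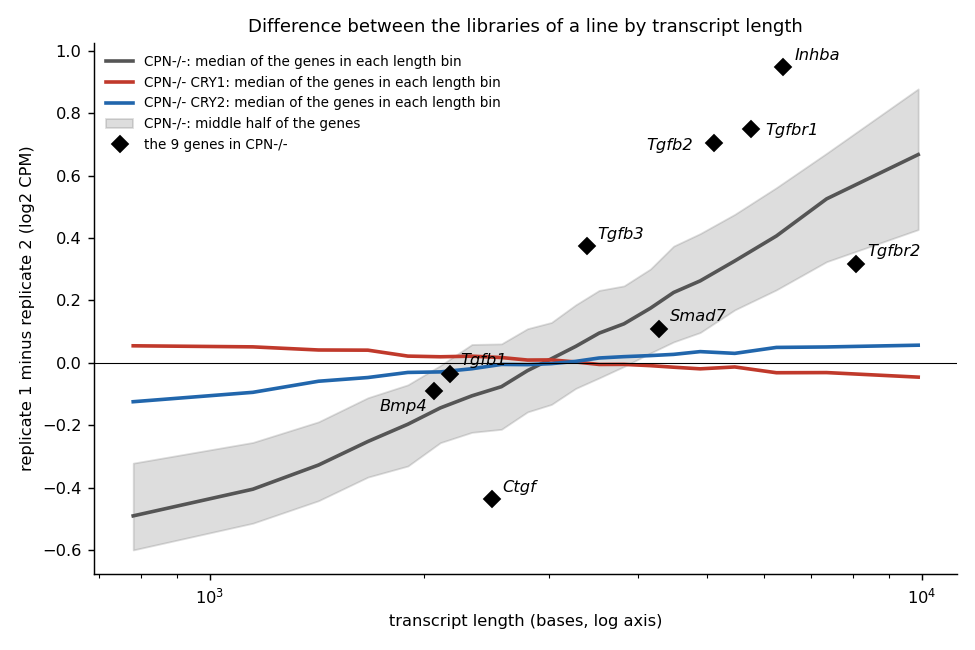
Difference of log2 CPM between replicates 1 and 2 (vertical axis) against transcript length in bases (log axis), with lines for the median of genes in each length bin of each line and a band from the lower to the upper quartile of genes in CPN-/-. The 9 genes in CPN-/- are diamonds; Inhba (0.95), Tgfbr1 (0.75), Tgfb2 (0.71) and Tgfb3 (0.38) lie above the band and Tgfbr2 (0.32) and Ctgf (-0.44) below it.

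With each library's trend with transcript length removed, 6 of the 9 genes were called in CPN-/- CRY1, 4 in CPN-/- CRY2 and 8 between the CRY-expressing lines. The share of all tested genes called rose as well, to 40.4%, 17.8% and 32.3%. All 9 of the earlier calls were among these. Added in CPN-/- CRY1 were Tgfb1 (log2FC 0.49, adjusted p = 0.0097) and Tgfbr1 (0.62, adjusted p = 0.0035), both higher, and Tgfbr2, lower (-0.57, adjusted p = 0.00057). Added in CPN-/- CRY2 were Tgfb3 (0.61, adjusted p = 0.0041) and Bmp4 (0.43, adjusted p = 0.006), both higher. Other differences became smaller, that of Tgfbr2 in CPN-/- CRY2 going from 0.39 to 0.13 (adjusted p = 0.28), that of Bmp4 in CPN-/- CRY1 from -0.23 to -0.06 (adjusted p = 0.55) and that of Inhba in CPN-/- CRY2 from 0.27 to 0.13 (adjusted p = 0.63). Between the CRY-expressing lines, a fit of their 4 libraries alone, without CPN-/-, also called 8 of the 9 genes, where 49.7% of all tested genes were called. Tgfb1, Tgfb2, Inhba, Tgfbr1 and Smad7 were higher and Tgfb3, Bmp4 and Tgfbr2 lower in CPN-/- CRY1 in that fit, and Ctgf was not called.

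**Figure D5:**
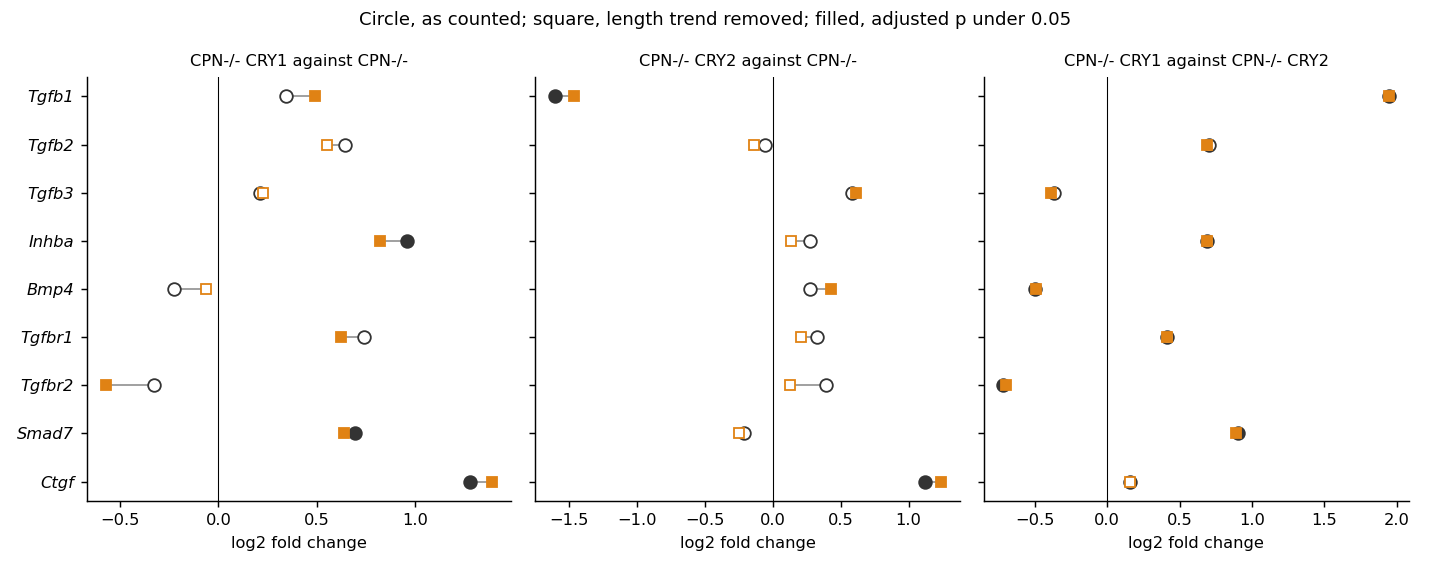
Log2 fold change (horizontal axis) of the 9 genes in the 3 comparisons as counted (circles) and with the trend with transcript length removed (squares), filled where the adjusted p was under 0.05. Tgfbr2 in CPN-/- CRY1 moved from -0.33 to -0.57 and in CPN-/- CRY2 from 0.39 to 0.13, and no sign changed.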

How the data were processed

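The authors prepared stranded mRNA libraries, mapped paired-end reads to mm10 (RNA STAR) and assigned them to genes (featureCounts). The deposited values are raw, whole counts of 27179 genes listed by NCBI Gene number. The gene annotation, the strand setting and the handling of reads with several matches are not given in the sources used here.

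Symbols, positions and promoter windows came from RefSeq for GRCm38, the same build, and transcript lengths from GENCODE (known for 12478 tested genes). Near-identical sequence was searched with BLAST+ 2.17.0, and 95% identity over 150 bases was required. Genes were kept by filterByExpr (at least 15 counts over all libraries, and 10 where the library is of median size). edgeR 4.0.16 in R 4.3.3 was fitted to all 6 libraries with the cell line as its only term, TMM factors and robust dispersions. Tests were two-sided with Benjamini-Hochberg adjustment. The SE was taken as |log2FC| over the root of F. With 2 libraries per line no exact permutation can pass the threshold. The edgeR and DESeq2 fits were tried on simulated counts that had no trend with transcript length. That simulation cannot check the removal of the trend or the fits with a library left out.

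The alternatives were DESeq2 1.42.0 size factors or Wald test, no filter on low counts, a replicate block, only the 4 libraries of a comparison, removal of the trend with transcript length (loess, span 0.5) with and without the block, and each library left out. The 9 genes, the lists of other pathway genes and the alternatives were chosen with earlier results of these data known. All 9 genes are named. Of the other pathway genes, the text names a set of classical targets, receptors and inhibitors, and up to 3 called genes per role and comparison with CPN-/-, those with the largest change and a mean of at least 100 counts. Some genes that this rule names are not reported here.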

Additional observations from a re-analysis of the deposited data

Results flagged for a closer look

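The CPN-/- CRY1 and CPN-/- CRY2 lines differed for 4 of the 9 genes when tested against each other, while 16.3% of all tested genes were called. The test was the quasi-likelihood test of edgeR, Benjamini-Hochberg adjusted, and values are the log2 of CPN-/- CRY1 over CPN-/- CRY2. Tgfb1 differed by 1.95 (adjusted p = 0.00043), Smad7 by 0.91 (adjusted p = 0.0036), Tgfbr2 by -0.72 (adjusted p = 0.010) and Bmp4 by -0.50 (adjusted p = 0.021). The remaining pathway genes named above with such a difference were higher in CPN-/- CRY1 for Tagln (1.74), Smad9 (1.599), Pmepa1 (1.18), Nbl1 (1.146), Acta2 (1.10), Atoh8 (0.90), Junb (0.72), Id3 (0.59), Smad6 (0.57) and Cdkn1a (0.48), with adjusted p between 0.0015 and 0.047. They were lower in CPN-/- CRY1 for Postn (-2.50), Id4 (-2.46), Ltbp2 (-1.70), Chrdl1 (-1.05) and Bambi (-1.02), with adjusted p between 0.00035 and 0.0097. Bmpr1b differed by a fitted 8.13 (adjusted p = 0.00034), a value that depends on the prior count since CPN-/- CRY2 had 0 and 1 counts. The differences of Tgfb1, Bmpr1b, Tagln, Smad9, Pmepa1, Postn and Id4 stayed under the threshold with each library left out in turn. That of Junb was lost with any 1 library left out and with the 4 libraries of the comparison alone. Those of Bmp4, Tgfbr2, Smad6, Chrdl1, Bambi, Cdkn1a and Id3 were lost without any 1 of the 4 libraries of the CRY-expressing lines. Those of Ltbp2 and Nbl1 were lost without replicate 1 of CPN-/- CRY1, that of Acta2 without replicate 1 of either line, that of Atoh8 without replicate 1 or 2 of CPN-/- CRY1 or replicate 1 of CPN-/- CRY2, and that of Smad7 without replicate 2 of CPN-/- CRY1 or either library of CPN-/- CRY2.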

How the results depend on the processing

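Of the calls on the 9 genes, 3 of 3 in CPN-/- CRY1, 2 of 2 in CPN-/- CRY2 and 4 of 4 between the CRY-expressing lines were kept with DESeq2's size factors or Wald test, without a filter on low counts and with the length trend removed. With only the 4 libraries of a comparison, the Inhba call in CPN-/- CRY1 was lost. In CPN-/- CRY1 that fit called 19 of the other pathway genes and 12.9% of all tested genes, beside 24.3% with all 6 libraries. In CPN-/- CRY2 it called 8 of the other pathway genes and 3.43% of all tested genes, beside 6.66%. The fit of all 6 libraries shares 1 estimate of the spread over the 3 lines, although the CPN-/- libraries differed most from each other. The replicate numbers were not shown to pair the samples, since the correlation of same-numbered deviations was -0.0791 for CPN-/- and CPN-/- CRY1, 0.141 for CPN-/- and CPN-/- CRY2 and -0.0296 for the CRY-expressing lines. With a replicate block, 4, 3 and 4 of the 9 genes and 28, 12 and 22 of the other pathway genes were called in the 3 comparisons in that order, beside 3, 2 and 4, and 26, 10 and 24, without it, and 24.6%, 6.94% and 15.6% of all tested genes were called. The block added Tgfbr1 in CPN-/- CRY1 (0.77, adjusted p = 0.024) and Tgfb3 in CPN-/- CRY2 (0.59, adjusted p = 0.029).

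With the length trend removed, 6, 4 and 8 of the 9 genes and 42, 30 and 37 of the other pathway genes were called, and with the length trend removed and the replicate block, 7, 4 and 8 and 44, 32 and 36, where 39.8%, 18% and 31.9% of all tested genes were called. With only the 4 libraries of CPN-/- CRY1 and CPN-/- CRY2, 8 of the 9 and 45 of the other pathway genes were called, beside 49.7% of all tested genes. For CPN-/- CRY2 against CPN-/-, DESeq2's Wald test called 18 of the other pathway genes, beside 8.59% of all tested genes. Leaving out each library in turn, the 9 genes gave between 1 and 9 calls in CPN-/- CRY1, 1 and 7 in CPN-/- CRY2 and 1 and 8 between the CRY-expressing lines, and the other pathway genes gave 10 to 47, 2 to 40 and 9 to 45. Of all tested genes, 4.64% to 63%, 1.37% to 56.4% and 3.32% to 48.4% were called in these fits, in which 1 line has 1 library and is assumed to vary like the others. The highest counts came without replicate 1 of CPN-/- and, between the CRY-expressing lines, without either CPN-/- library. The lowest came without libraries of the CRY-expressing lines. The cause was not tested. The sign changed for Tgfb2 in CPN-/- CRY2 without replicate 1 of CPN-/- (0.37, and between -0.35 and 0.37 over the left-out libraries), Inhba in CPN-/- CRY2 without replicate 2 of CPN-/- (-0.11, range -0.11 to 0.84) and Ctgf between the CRY-expressing lines without replicate 2 of CPN-/- CRY1 (-0.0099, range -0.0099 to 0.31), none of them called. Depth limits Tgfb2 most, with 36 counts in its lowest library.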
